A study of Mus musculus with 18 samples.

Results

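The events described here are the 330 rows of the deposited splicing table that are neither cassette exons nor tandem cassette exons. They were chosen by the event type given in the table, out of 1991 rows in all. Of them, 219 rows were mutually exclusive exons, where a transcript carries 1 of 2 neighbouring exons. A further 49 rows were alternative 3′ splice sites and 24 rows were alternative 5′ splice sites, where an exon begins or ends at either of 2 positions. The remaining 38 rows were retained introns, which stay in the mature transcript in part of the molecules. The rows lie in 146 genes.

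RNA came from mouse brain at embryonic day 18.5 on a CD1 background, by RNA-seq of ribosome-depleted total RNA. Cortex was taken from 3 *Nova2-/-* mice and 3 wild-type littermates (WT1 to WT3) and from 3 *Nova1-/-* mice and 3 wild-type littermates (WT4 to WT6). Midbrain and hindbrain together were taken from 3 *Nova1-/-* mice and 3 wild-type mice. Both are germline knockouts, and in the *Nova2* line a cassette with an IRES and Cre stands upstream of the initiator codon in the first coding exon. NOVA1 and NOVA2 are RNA-binding proteins of neurons that bind clusters of YCAY, where Y is C or T, and that promote or block the use of a splice site depending on where they sit. NOVA2 is the main family member of the cortex, and NOVA1 is that of the midbrain, hindbrain and spinal cord.

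The splicing measure is ΔI, the inclusion fraction in wild-type mice minus that in the knockout, from -1 to 1. The table holds 1 pooled ΔI and 1 FDR, an adjusted p-value, for each event and comparison, with no values per mouse and no read counts, so neither spread nor depth is known and ΔI was compared without a test. Every row of the table had been kept by its authors for a |ΔI| of at least 0.1 and an FDR below 0.1 in *Nova2-/-* cortex, together with YCAY in NOVA CLIP clusters. The size of ΔI in *Nova2-/-* cortex and the presence of YCAY are therefore descriptions of the selection. The sign of ΔI in *Nova2-/-* cortex and all values in the *Nova1-/-* comparisons were not part of it. The smallest |ΔI| of a type ranged from 0.1 for *Crebbp* among the alternative 3′ sites to 0.109 for *Golga1* among the retained introns.

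The rows are not separate measurements. All 38 retained-intron rows were 19 rows each given 2 times, identical in every column, and no other type held an identical row. The 219 mutually exclusive rows lay on 121 spans, where a span is the stretch from the exon before the alternative exons to the exon after them, and 56 spans held 2 or more rows, up to 9 on a span of *Rbfox2*, itself a splicing factor. Alternative 3′ sites had 49 spans but 39 distinct sets of ΔI values: *Idh3b*, a subunit of mitochondrial isocitrate dehydrogenase, gave 6 rows with a ΔI of 0.267 that differed in where the span ended and slightly in FDR, from 1.55e-26 to 3.49e-26. *Ncor1*, a nuclear receptor corepressor, gave 4 rows with a ΔI of -0.114 in the same way. The 24 alternative 5′ rows lay on 22 spans.

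**Figure D1:**
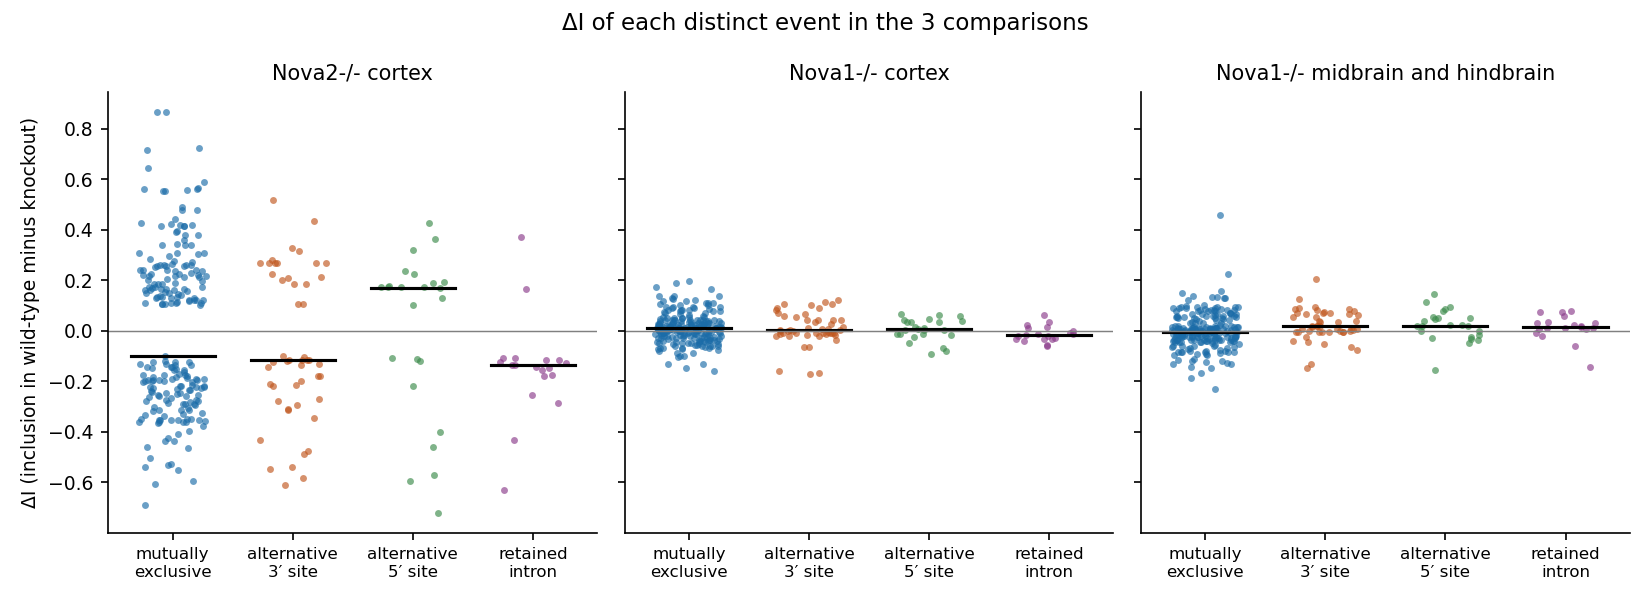
The vertical axis gives ΔI (wild-type minus knockout) and each point is 1 distinct row, by event type, in the 3 comparisons, with a black line at the median. In *Nova2-/-* cortex the selection leaves the band between -0.1 and 0.1 empty and 17 of 19 retained-intron rows lie below 0, while *Nova1-/-* values gather around 0.

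Sequences of the exons and sites that the results turn on are shown first, in mm9 coordinates and in the sense of the transcript. They were read from the mouse genome NCBIM37, the assembly that mm9 names, whose annotation is GENCODE vM1. Among the 121 spans of mutually exclusive exons, 14 spans in 13 genes could be resolved into exactly 2 annotated exons, and in 10 of these spans no annotated transcript carried both. In 5 of the 14 spans the exons had the same length, and in 12 of them the lengths differed by a multiple of 3, 0 included. The pairs of equal length are shown because their exons can be laid against each other, with the differing positions in capitals. *Snap25*, the SNARE protein of synaptic vesicle fusion, has a pair of 118 nt that differs at 31 positions (73.7% identity).
Snap25 first exon (chr2:136595479-136595596, plus strand): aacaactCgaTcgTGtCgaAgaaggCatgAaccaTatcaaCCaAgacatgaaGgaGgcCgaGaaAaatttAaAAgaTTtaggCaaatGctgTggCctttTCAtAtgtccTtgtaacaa
Snap25 second exon (chr2:136595793-136595910, plus strand): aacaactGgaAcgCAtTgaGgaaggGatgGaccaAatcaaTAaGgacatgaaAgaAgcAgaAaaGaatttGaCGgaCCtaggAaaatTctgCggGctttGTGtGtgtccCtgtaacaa

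*Mapk9*, the kinase JNK2, has a pair of 72 nt that differs at 25 positions (65.3% identity), and *Tpm3*, a tropomyosin of the actin filament, has a pair of 76 nt that differs at 37 positions (51.3% identity).
Mapk9 first exon (chr11:49687338-49687409, plus strand): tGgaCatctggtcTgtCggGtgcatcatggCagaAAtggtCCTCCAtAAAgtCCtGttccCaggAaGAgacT
Mapk9 second exon (chr11:49687766-49687837, plus strand): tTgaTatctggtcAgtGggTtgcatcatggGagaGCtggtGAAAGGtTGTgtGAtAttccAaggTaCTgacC
Tpm3 first exon (chr3:89892323-89892398, plus strand): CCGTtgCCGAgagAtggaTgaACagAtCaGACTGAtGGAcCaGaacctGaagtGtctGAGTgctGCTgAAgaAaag
Tpm3 second exon (chr3:89892970-89893045, plus strand): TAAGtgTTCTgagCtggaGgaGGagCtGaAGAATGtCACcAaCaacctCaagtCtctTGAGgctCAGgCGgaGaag

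*Pkm*, pyruvate kinase of glycolysis, carries the pair that sets apart its M1 form, with the first exon, from its M2 form, with the second. The exons are 167 nt long and differ at 64 positions (61.7% identity).
Pkm first exon (chr9:59522836-59523002, plus strand): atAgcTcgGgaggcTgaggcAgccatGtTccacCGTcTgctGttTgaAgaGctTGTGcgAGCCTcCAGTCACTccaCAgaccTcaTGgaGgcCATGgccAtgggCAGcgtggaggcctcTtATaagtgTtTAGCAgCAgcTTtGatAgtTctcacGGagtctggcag
Pkm second exon (chr9:59523375-59523541, plus strand): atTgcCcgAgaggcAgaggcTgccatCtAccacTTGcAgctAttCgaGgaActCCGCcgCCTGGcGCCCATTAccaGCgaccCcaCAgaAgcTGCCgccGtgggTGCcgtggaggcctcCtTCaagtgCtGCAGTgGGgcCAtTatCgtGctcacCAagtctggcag

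The fifth pair of equal length, in *Ints10*, a subunit of the Integrator complex, had 78 nt in each exon and 34.6% identity. The other resolved pairs had unequal exons, from 12 nt and 15 nt in *Spag9*, a JNK scaffold, to 2880 nt and 5217 nt in *Vcan*. The latter are the large exons that carry the glycosaminoglycan chains of versican, a proteoglycan of the extracellular matrix.

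The table does not state which form counts as included. For mutually exclusive exons it was read from cassette rows of the same table that share an end of the span. Where a cassette row began at the 5′ end of the span and stopped inside it, the signs of both ΔI values were equal in 138 of 144 pairs, over 40 genes. Where a cassette row ended at the 3′ end of the span and began inside it, the signs were opposite in 197 of 206 pairs, over 42 genes. Across these pairs Pearson's r was 0.817 and -0.871, given as a description, since the pairs share reads, samples and genes. A ΔI above 0 was accordingly read as more of the first, 5′ exon in wild-type than in the knockout. In all, 194 of 219 mutually exclusive rows and 101 of 121 spans had a cassette row on an end of the span or on the whole of it, so most of them measure in another way an exon that the table also holds as a cassette.

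**Figure D2:**
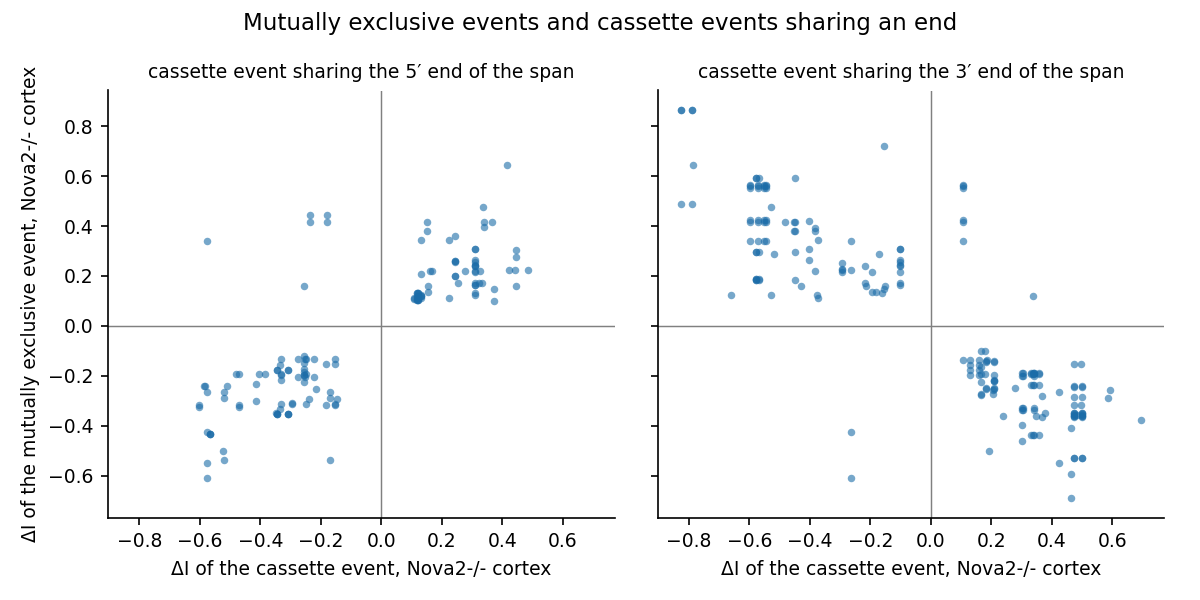
Each point pairs the ΔI of a mutually exclusive row (vertical) with that of a cassette row sharing the 5′ end (left panel) or the 3′ end (right panel) of its span (horizontal), both in *Nova2-/-* cortex. Signs are equal in 138 of 144 pairs on the left and opposite in 197 of 206 pairs on the right.

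Mutually exclusive exons went either way in about equal numbers in *Nova2-/-* cortex. ΔI was above 0 in 109 of 219 rows (49.8%, exact 95% binomial interval 43.0 to 56.6%, which covers counting error only and takes rows as independent, which they are not), and in 56 of 121 spans (46.3%, interval 37.2 to 55.6%). Among cassette exons of the same table it was above 0 in 50.1% of 941 rows. The median |ΔI| was 0.242 over the mutually exclusive rows, against 0.222 over all cassette and tandem cassette rows, and 20 rows reached 0.5.

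The largest value in favour of the first exon in wild-type was that of *Lmtk3*, a membrane kinase of neurons, with a ΔI of 0.865 in 2 of its 3 rows and of 0.490 in the other, on chr7:53042180-53043392. It was followed by *Adam22*, a catalytically inactive ADAM protein that is the synaptic receptor of LGI1, at 0.721, and by *Grik2*, the kainate receptor subunit GluK2, at 0.646. *Smarce1*, a subunit of the BAF chromatin remodelling complex, stood at 0.591 and *Arpp21*, a cAMP-regulated phosphoprotein, at 0.565. In *Nova1-/-* cortex these 5 rows with the largest ΔI of their gene lay between 0.00166 (*Lmtk3*) and 0.0917 (*Grik2*), all with an FDR of 1.

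In the other direction *Epb4.1l2*, a protein 4.1 family member that ties the membrane to spectrin and actin, had a ΔI of -0.691 (FDR 0.0408). *Dlg3*, the synaptic scaffold SAP102, had a row at -0.608 (FDR 2.01e-26), *Agfg1*, an ArfGAP family member, one at -0.539, *Ccdc136* one at -0.531 and *Tpm1*, another tropomyosin, one at -0.501. *Ccdc136* gave 13 rows on 7 spans, all below 0, from -0.531 to -0.227. *Rbfox2* gave 9 rows on 1 span, all above 0, from 0.164 to 0.308.

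Rows on 1 span could differ a good deal. Over the 56 spans with 2 or more rows the median range of ΔI was 0.0911. Rows of both signs shared a span in 2 genes: *Dlg3*, where the 3 rows on chrX:98002519-98008115 had ΔI of -0.608, -0.424 and 0.340, and *Snap25*, where 2 rows on chr2:136589309-136603216 had -0.198 and 0.161.

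For the pairs printed above, all rows on the span of the pair are given. Whether each row measures exactly the printed exons was not checked. *Mapk9* had ΔI of 0.395 to 0.416 in 2 rows, read as more use of its first exon in wild-type. *Pkm* stood at 0.109 and 0.110, read as more of the exon of the M1 form in wild-type. *Snap25* had -0.223 to -0.122 in 6 rows and *Tpm3* -0.315 and -0.152 in 2 rows, read as more of the second exon in wild-type. In *Nova1-/-* cortex the 4 genes ranged from -0.0682 (*Snap25*) to 0.0561 (*Mapk9*), and in *Nova1-/-* midbrain and hindbrain from -0.0593 (*Snap25*) to 0.0328 (*Pkm*). *Snap25* rows were below 0 in all 3 comparisons on this span.

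The 2 positions of an alternative splice site could be resolved in the annotation for 15 of 49 rows of 3′ sites and 8 of 24 rows of 5′ sites, each in a gene of its own. The distance between the sites ranged from 3 to 3075 nt for 3′ sites (median 30 nt) and from 15 to 163 nt for 5′ sites (median 39 nt). It was a multiple of 3 in 14 of 15 and in 6 of 8 segments. Among annotated pairs of the same kind in the whole genome, 55.3% of 2969 pairs of 3′ sites and 45.5% of 1739 pairs of 5′ sites had such a length. The segment overlapped annotated coding sequence in 14 of 15 and in 8 of 8. The genome-wide pairs were not limited to coding sequence, so the shares are not like for like. The exceptions in length were *St7* (1901 nt), *Ccdc9* (46 nt) and *Cttnbp2* (163 nt).

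Short coding segments between 2 donor sites are shown with 20 nt on each side, the segment in capitals. They lie in *Adam22* (87 nt), *Tln2*, the adhesion adaptor talin 2 (45 nt), *Cask*, a scaffold kinase of the presynapse (18 nt), and *Epha7*, an ephrin receptor of axon guidance (15 nt). The first donor begins with the GT that opens the capitals and the second with the gt that follows them.
Adam22 (chr5:8094966-8095092, minus strand): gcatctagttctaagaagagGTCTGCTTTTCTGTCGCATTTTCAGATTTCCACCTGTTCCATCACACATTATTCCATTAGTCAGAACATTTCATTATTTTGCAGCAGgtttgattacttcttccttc
Tln2 (chr9:67074850-67074934, minus strand): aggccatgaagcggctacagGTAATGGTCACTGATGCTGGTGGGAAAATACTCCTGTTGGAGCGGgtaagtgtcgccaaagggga
Cask (chrX:13363025-13363082, minus strand): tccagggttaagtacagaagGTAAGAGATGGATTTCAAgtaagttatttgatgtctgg
Epha7 (chr4:28865895-28865949, plus strand): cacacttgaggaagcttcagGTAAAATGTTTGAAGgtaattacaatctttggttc

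Segments between 2 acceptor sites are shown in the same way, for *Rasal2*, a Ras GTPase-activating protein (21 nt), *Kalrn*, a RhoGEF of dendritic spines (27 nt), *Ogt*, the O-GlcNAc transferase (30 nt), and *Snap91*, the clathrin adaptor AP180 (15 nt). An ag stands just before the capitals and closes them in each, in lower and in upper case.
Rasal2 (chr1:159088949-159089009, minus strand): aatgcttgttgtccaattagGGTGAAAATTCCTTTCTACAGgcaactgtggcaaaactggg
Kalrn (chr16:34220314-34220380, minus strand): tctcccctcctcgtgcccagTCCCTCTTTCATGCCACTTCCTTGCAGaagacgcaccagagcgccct
Ogt (chrX:98838295-98838364, plus strand): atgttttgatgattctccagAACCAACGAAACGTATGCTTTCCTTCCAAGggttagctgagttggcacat
Snap91 (chr9:86676519-86676573, minus strand): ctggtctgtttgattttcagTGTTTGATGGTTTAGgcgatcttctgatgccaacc

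For splice sites the longer form was read as included. Cassette rows on the identical span had the same sign in 13 of 14 pairs for 3′ sites, over 10 genes, and in 5 of 5 pairs for 5′ sites, over 4 genes. *Grip1*, for example, a scaffold of glutamate receptors, had -0.344 as a 3′ site and -0.348 as a cassette exon. The exception was *St7*, with 0.516 as a 3′ site and -0.113 in 1 of 2 cassette rows, the other being 0.541.

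Among alternative 3′ sites ΔI was above 0 in 19 of 49 rows (38.8%, exact 95% binomial interval 25.2 to 53.8%), or in 12 of 39 distinct sets of ΔI values (30.8%, interval 17.0 to 47.6%). The intervals of both overlap that of cassette exons, which was 46.8 to 53.3%. The lowest values were those of *Tex2* (-0.611), *Ank3*, the ankyrin of the axon initial segment (-0.583), and *Rasal2* (-0.546). The highest were those of *St7* (0.516), *Cxcl12*, a chemokine that guides migrating neurons (0.432), and *Brd9*, another BAF complex subunit (0.326). *Dcc*, the netrin receptor of commissural axons, had a ΔI of 0.202 (FDR 0.0521) for acceptors 60 nt apart, and *Neo1*, its close relative, one of -0.120.

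Alternative 5′ sites had ΔI above 0 in 15 of 24 rows (62.5%, interval 40.6 to 81.2%) and in 13 of 22 spans (59.1%). *Adam22* was lowest at -0.720 (FDR 5.61e-20), followed by *Smarcc2*, also a BAF complex subunit, at -0.594 and *Cabin1*, an inhibitor of calcineurin, at -0.570. *Wnk3*, a kinase acting on cation-chloride cotransporters, was highest at 0.427, followed by *Itpr1*, the calcium channel of the endoplasmic reticulum, at 0.361 and *Ccdc9* at 0.321. Of the sequences printed, *Tln2* had 0.237, *Cask* 0.225 and *Epha7* 0.130, with more of the longer form in wild-type. *Kalrn* stood at 0.316, *Ogt* at -0.293 and *Snap91* at -0.199 for 3′ sites.

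**Figure D3:**
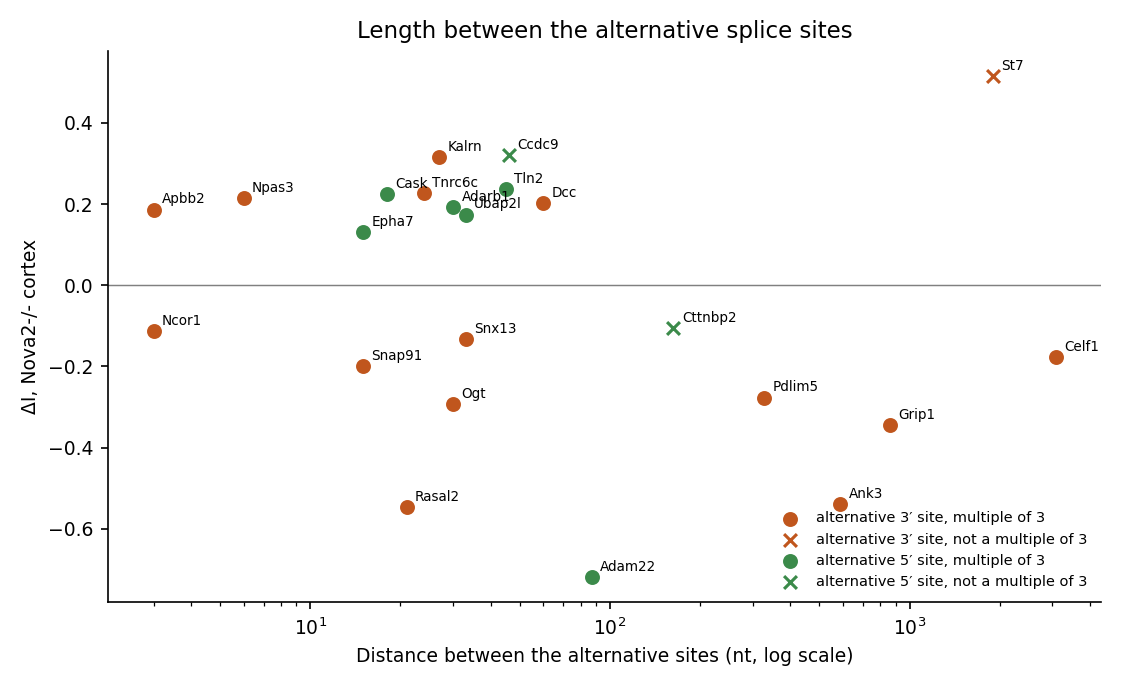
The horizontal axis gives the distance in nt between the alternative sites (log scale) and the vertical axis ΔI in *Nova2-/-* cortex, for the 23 rows resolved in the annotation, with circles for multiples of 3 and crosses for other lengths. The 3 crosses are *St7*, *Ccdc9* and *Cttnbp2*, and values above and below 0 occur at short as well as at long distances.

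Retained introns went mainly one way. Of the 19 distinct rows 17 had ΔI below 0, read as more of the intron kept in *Nova2-/-* than in wild-type cortex, and 2 had ΔI above 0 (10.5%, exact 95% binomial interval 1.30 to 33.1%). Among cassette exons the share above 0 was 50.1% (interval 46.8 to 53.3%), which does not overlap. The 19 rows lie on 18 introns, since *Golga1* has 2 rows for 1 intron, and 16 of the 18 introns were below 0 and 2 above (11.1%, interval 1.38 to 34.7%). The reading of the sign comes from introns next to other events. In *St7* the intron of 1832 nt follows a 69-nt exon. ΔI was -0.287 for the intron, and 0.541 and -0.113 in the 2 cassette rows over it. In *Brd9* both rows share a donor, and the intron ending at the first acceptor (576 nt) had -0.253 while that ending 60 nt further on (636 nt) had 0.164. The 3′ site row of the same pair of acceptors, at 0.326, gives more use of the first acceptor in wild-type. With retention counted as inclusion, the 3 signs in *Brd9* follow from one another. In *St7* those of the intron and of the cassette row at 0.541 do so too, but the cassette row at -0.113 has the sign of the intron. The 3′ site row of *St7*, at 0.516, does not fall in with this reading: its segment of 1901 nt is the 69-nt exon together with the whole intron, so that its longer form would hold the intron and be the more used in wild-type. Which reads that row counts is not given in the table, and the reading of the sign rests on few genes. In ribosome-depleted total RNA, an intron kept in mature transcripts and one not yet removed from unspliced transcripts cannot be told apart.

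The 60 nt before the first acceptor of *Brd9*, the 60 nt between both and the 40 nt after the second are shown, with the AG of each acceptor in capitals.
Brd9 acceptors (chr13:74080019-74080178, plus strand): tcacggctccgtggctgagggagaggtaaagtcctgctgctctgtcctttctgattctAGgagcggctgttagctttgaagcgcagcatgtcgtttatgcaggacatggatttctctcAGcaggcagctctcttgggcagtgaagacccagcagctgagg

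The largest ΔI was that of *Adam11*, a catalytically inactive ADAM protein of the brain, at -0.631 (FDR 4.35e-08). Its intron of 482 nt lies between exons of 18 nt and 2133 nt. *Agrn*, the proteoglycan agrin that organises the neuromuscular junction, followed at -0.434 (FDR 9.07e-12). Its intron of 736 nt lies between exons of 24 nt and 33 nt, the small exons that make the neural form of agrin, shown in capitals with 20 nt on each side.
Agrn exon of 24 nt (chr4:155542635-155542698, minus strand): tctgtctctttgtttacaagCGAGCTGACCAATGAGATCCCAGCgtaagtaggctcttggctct
Agrn exon of 33 nt (chr4:155541866-155541938, minus strand): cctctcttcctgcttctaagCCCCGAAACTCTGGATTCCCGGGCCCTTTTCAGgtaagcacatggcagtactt
The 5 distinct cassette rows over this intron had ΔI between 0.280 and 0.428 and the 3 tandem cassette rows between 0.342 and 0.400, the sign opposite to that of the intron. These rows span the intron, so the opposite signs need not be separate changes, and whether the intron itself was kept more was not tested.

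After *St7* and *Brd9*, the other 13 rows below 0 lay between -0.179 and -0.109. Among them were *Tbc1d24*, *Rbm25*, *Nktr*, *Slc29a1*, *Mapk7*, *Smc5*, *Ccnl1*, *Hnrnpdl*, *Pick1*, *Marchf7* and, in 2 rows for 1 intron, *Golga1*. *Rbm25*, a splicing factor, stood at -0.173, *Ccnl1*, the cyclin L1 of splicing speckles, at -0.129 and *Hnrnpdl*, an hnRNP, at -0.122. *Slc29a1*, a nucleoside transporter, stood at -0.147, *Mapk7*, the kinase ERK5, at -0.145, and *Pick1*, which handles AMPA receptor traffic, at -0.115. The 2 rows above 0 were *Celf2*, an RNA-binding splicing regulator, at 0.370 (FDR 4.98e-59) and the longer *Brd9* intron. Only *Agrn* and *St7* had a cassette or tandem cassette row over the whole intron, so 17 of 19 rows, on 16 of 18 introns, lay under no such row. Rows that overlap an intron only in part, and rows of the other types, were not counted here. Both *Brd9* introns end at the acceptors of the *Brd9* 3′ site row, so they are not separate from it.

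All 18 introns began with GT and ended with AG. Their lengths ran from 103 nt in *Mapk7* to 3300 nt in *Rbm25*, with a median of 786 nt against 1397 nt over all 243332 annotated introns and 1002 nt over the 373 annotated introns of the same genes. In 7 of 18 the length was a multiple of 3. An annotated exon covered the whole intron in 12 of 18, so a transcript that keeps it is already in the annotation. The shortest pair is shown whole, with YCAY in capitals.
Mapk7 intron (chr11:61304007-61304109, minus strand): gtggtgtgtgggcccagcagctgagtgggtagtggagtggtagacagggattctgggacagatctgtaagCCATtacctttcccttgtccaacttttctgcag
Slc29a1 intron (chr17:45726498-45726629, minus strand): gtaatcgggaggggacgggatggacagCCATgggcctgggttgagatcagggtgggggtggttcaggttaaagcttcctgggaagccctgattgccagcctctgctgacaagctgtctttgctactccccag

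**Figure D4:**
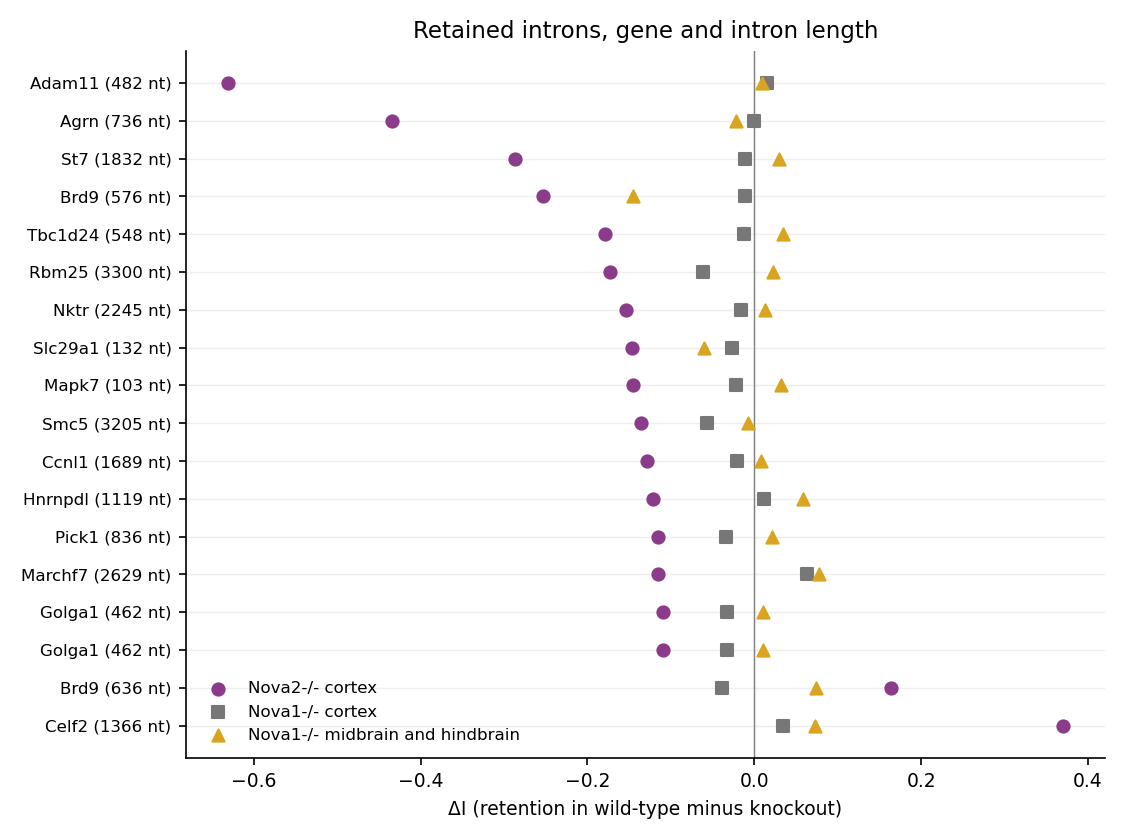
Each line is 1 of 18 distinct retained-intron rows, with its gene and intron length in nt, and the horizontal axis gives ΔI (retention in wild-type minus knockout) in *Nova2-/-* cortex (circles), *Nova1-/-* cortex (squares) and *Nova1-/-* midbrain and hindbrain (triangles). Circles run from -0.631 to 0.370, squares from -0.0613 to 0.0628 and triangles from -0.145 to 0.0780.

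YCAY was counted in the sense strand as CCAC together with CCAT and as TCAC together with TCAT, overlaps included, in the 200 nt on the intron side of each resolved splice site. In introns shorter than that the window ran on into the next exon, and windows of neighbouring alternative sites overlap. For the first of 2 donors and the second of 2 acceptors the window takes in the alternative segment, which is exon in the longer form. The highest count at acceptors of alternative 3′ sites, 16 in *Pdlim5*, came from such a window. Since YCAY took part in the selection of the table, the counts are a description. At 5′ sites the mean was 6 per window for alternative 5′ sites (16 windows), 3.88 for mutually exclusive exons (26 windows), 3.88 for retained introns (17 windows) and 2.47 for alternative 3′ sites (15 windows), against 3.1 over 218278 windows of all annotated introns. At 3′ sites it was 5.67 for alternative 3′ sites (30 windows), 4.88 for alternative 5′ sites (8 windows), 4.61 for retained introns (18 windows) and 3.81 for mutually exclusive exons (26 windows), against 3.4 over 214269 windows. The order for 5′ sites rests on *Ccdc9*, with 14 in each of its overlapping donor windows: without it the mean was 4.86 at donors and 5.14 at acceptors. For 3′ sites the acceptors stayed above the donors with any 1 gene left out, at 5.32 to 6 against 2.29 to 2.64. The share of windows with 3 or more was 93.8% at the donors and 100% at the acceptors (8 of 8) of alternative 5′ sites, and 60% at the donors and 73.3% at the acceptors of alternative 3′ sites, against 57.5% of donors and 64.1% of acceptors over all introns. The reverse complement of the motif gave means of 3.69 at the donors of alternative 5′ sites and 2.73 at the acceptors of alternative 3′ sites, against 3.98 and 3.47 over all introns.

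Within the retained introns the density of YCAY ran from 0.758 per 100 nt in *Slc29a1* to 3.65 in the shorter *Brd9* intron. The 150 nt with most YCAY are shown for *Adam11* (6 motifs, intron positions 183 to 332), *Agrn* (7 motifs, positions 466 to 615) and *St7* (8 motifs, positions 75 to 224), with the motifs in capitals and positions counted from the donor.
Adam11 intron (chr11:102639145-102639294, plus strand): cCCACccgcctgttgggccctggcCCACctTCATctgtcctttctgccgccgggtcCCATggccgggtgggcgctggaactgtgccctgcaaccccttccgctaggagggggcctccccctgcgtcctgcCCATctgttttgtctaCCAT
Agrn intron (chr4:155542040-155542189, minus strand): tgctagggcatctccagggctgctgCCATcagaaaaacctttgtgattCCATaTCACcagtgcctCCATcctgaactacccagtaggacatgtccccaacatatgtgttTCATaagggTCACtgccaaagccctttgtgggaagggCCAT
St7 intron (chr6:17800500-17800649, plus strand): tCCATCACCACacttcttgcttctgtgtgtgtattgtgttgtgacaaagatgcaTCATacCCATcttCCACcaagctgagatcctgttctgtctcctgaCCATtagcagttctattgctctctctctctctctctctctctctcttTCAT

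The same events were then followed in *Nova1-/-* mice, whose cortex samples and wild-type littermates are other mice than those of the *Nova2* comparison. In *Nova1-/-* cortex 3 of 330 rows (0.909%) passed a |ΔI| of 0.1 with an FDR below 0.1, against 0.907% of all rows of the table (18 of 1984). They were 2 rows of *Camk2g*, a subunit of calcium/calmodulin-dependent kinase II (ΔI 0.111, FDR 0.0608, and 0.136, FDR 0.0373), and the 3′ site of *Luc7l*. *Camk2g* had 5 rows on 1 span, all above 0 in *Nova2-/-* cortex (0.122 to 0.240) and in both *Nova1-/-* comparisons. *Luc7l*, a factor associated with the U1 snRNP, had -0.160 (FDR 0.00200) in *Nova1-/-* cortex and 0.281 (FDR 0.0902) in *Nova2-/-* cortex, the opposite direction.

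In *Nova1-/-* midbrain and hindbrain 15 of 330 rows (4.55%) passed both limits, against 5.98% of all rows (119 of 1991). Of these 9 were mutually exclusive rows, 4 in *Ccdc136*, 4 in *Sirpa* and 1 in *Sphkap*. *Sirpa*, a receptor of neurons and myeloid cells that binds CD47, reached 0.457 (FDR 0.000775) in a row that stood at 0.255 in *Nova2-/-* cortex, and its other 3 rows stood between 0.128 and 0.158. *Ccdc136* rows stood between -0.131 and -0.118 and *Sphkap*, a kinase-anchoring protein, at 0.120. The 2 rows of 3′ sites were *Nptn*, the adhesion protein neuroplastin (-0.131, FDR 3.86e-05), and *Luc7l* (-0.147, FDR 1.71e-12). The 2 rows of 5′ sites were both of *Atp2b1*, a plasma membrane calcium pump (0.147 and 0.112). The shorter *Brd9* intron, at -0.145 (FDR 6.05e-05), made up the 2 identical rows of retained introns. All but *Luc7l* had the direction they had in *Nova2-/-* cortex.

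Medians were taken over all rows of a type, those past the limits included. The median |ΔI| in *Nova1-/-* cortex was 0.0322 for mutually exclusive rows, 0.0192 for 3′ sites, 0.0338 for 5′ sites and 0.0223 for retained introns, against 0.0341 over all rows. In midbrain and hindbrain it was 0.0384, 0.0407, 0.0370 and 0.0223, against 0.0378. The sign was that of *Nova2-/-* cortex in 117 of 219 mutually exclusive rows in *Nova1-/-* cortex (53.4%) and in 154 of 218 in midbrain and hindbrain (70.6%). For 3′ sites it was 13 of 49 (26.5%) and 18 of 49 (36.7%), or 13 of 39 (33.3%) and 16 of 39 (41%) distinct sets of ΔI values. For 5′ sites it was 12 of 24 (50%) and 17 of 24 (70.8%). For the 19 distinct retained-intron rows it was 14 (73.7%) in cortex and 6 (31.6%) in midbrain and hindbrain. Over all rows it was 44.0% and 58.2%. Most of these values lay within 0.1 of 0, without a measure of their error, and whether the shares differ was not tested.

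Host genes were then counted in gene lists chosen for this tissue, with rows that are given 2 times counted once. Of all 15691 genes tested for abundance in *Nova2-/-* cortex, 0.911% were host genes, and the share was 27% among the 541 genes with any event in the table. The lists were drawn up for the tissue with results of these data known, so their shares are descriptions, with no test. Of 51 axon guidance genes 7 carried one of the 4 types of event, out of 18 with any event (38.9%): *Ablim1*, *Arhgef12*, *Cxcl12*, *Dcc*, *Epha7*, *Neo1* and *Pak3*, in 10 rows with 5 above and 5 below 0. *Ablim1*, an actin-binding LIM protein, had 0.379 and 0.415, *Arhgef12*, a RhoGEF downstream of plexins, -0.291, and *Pak3*, a kinase downstream of Rac, -0.460 and -0.395. Of 50 genes of synapses and ion channels 9 did, out of 26 with any event (34.6%), in 28 rows with 10 above and 18 below 0, among them *Gphn*, gephyrin of inhibitory synapses (-0.325 and -0.318), *Nlgn1*, a postsynaptic adhesion protein (-0.350), and *Scn3a*, a sodium channel (-0.272 and -0.258). Of 52 genes of RNA binding and splicing 6 did, out of 10 with any event (60%), in 16 rows with 14 above and 2 below 0, and of these 16 rows 9 were those of *Rbfox2*. Of 45 genes of cytoskeleton and adhesion 14 did, out of 33 with any event (42.4%), in 30 rows with 14 above and 16 below 0. Markers of meningeal fibroblasts, cortical neurons and hindbrain held none.

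Abundance of the host genes was then compared in cortex, to set the events beside changes in the amount of their transcripts. Of 146 host genes 143 were matched to the gene table, 136 by symbol and 7 by a RefSeq synonym, and all 143 passed the filter on low counts. Total counts ranged from 16518149 to 31361972 per mouse. *Nova1* lay at 0.0341 to 0.211 CPM (counts scaled to library size) in *Nova1-/-* cortex and at 41.5 to 75.8 CPM in its wild-type littermates. *Nova2* lay at 17.0 to 21.5 CPM in *Nova2-/-* cortex and at 31.0 to 40.9 CPM in its littermates. Summed levels of 6 cortical neuron markers were 825 to 1070 CPM in all 12 samples and those of 8 hindbrain markers at most 2.12 CPM. Summed levels of 12 meningeal fibroblast markers were 231 to 583 CPM in WT1 to WT3 and 909 to 1090 CPM in *Nova2-/-* cortex against 710 to 1030 CPM in the *Nova1* litters. The part of this difference in the changes of host genes, and in ΔI of *Nova2-/-* cortex, such as that of *Pkm*, was not tested. In such whole-cortex RNA, fewer cells of a type and less RNA per cell cannot be told apart.

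In *Nova2-/-* cortex 1 host gene passed an FDR below 0.05 with a log2 change of 1 or more either way, by edgeR's quasi-likelihood test, where 0.261% of 15691 genes passed. This gene was *Lmtk3*, which also had the largest ΔI of the 330 rows. Its level was 64.7, 77.2 and 77.4 CPM in WT1 to WT3 and 29.2, 29.4 and 38.2 CPM in the *Nova2-/-* mice. The groups did not overlap, and the log2 fold change was -1.18 ± 0.13 (SE, n = 3 against 3, edgeR adjusted p = 0.0114). The call was lost without *Nova2-/-* replicate 1 or 2.

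At any fold change 6 of 143 host genes passed (4.20%), against 1.06% of all genes, and all 6 carried mutually exclusive exons. *Dlg3* fell from 117 ± 1.96 to 75.8 ± 3.87 CPM (SD, n = 3), *Srr*, serine racemase, from 107 ± 13.8 to 71.5 ± 2.05 CPM and *Foxp1*, a transcription factor of cortical neurons, from 270 ± 10.4 to 208 ± 11.9 CPM. *Ccp110*, a protein that caps centrioles, rose from 80.0 ± 6.95 to 148 ± 6.65 CPM and *Vcan* from 429 ± 29.4 to 587 ± 18.1 CPM. Their ΔI values were -0.435 for *Srr*, 0.159 for *Foxp1*, 0.260 for *Ccp110* and 0.136 for *Vcan*. In none of the 6 did the mice of both groups overlap. With 1 sample left out *Ccp110* lost its call without *Nova2-/-* replicate 2, *Dlg3* without WT2 or *Nova2-/-* replicate 1 or 2, and *Srr*, *Foxp1* and *Vcan* in 5 of 6 cases each, all but that without WT3.

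**Figure D5:**
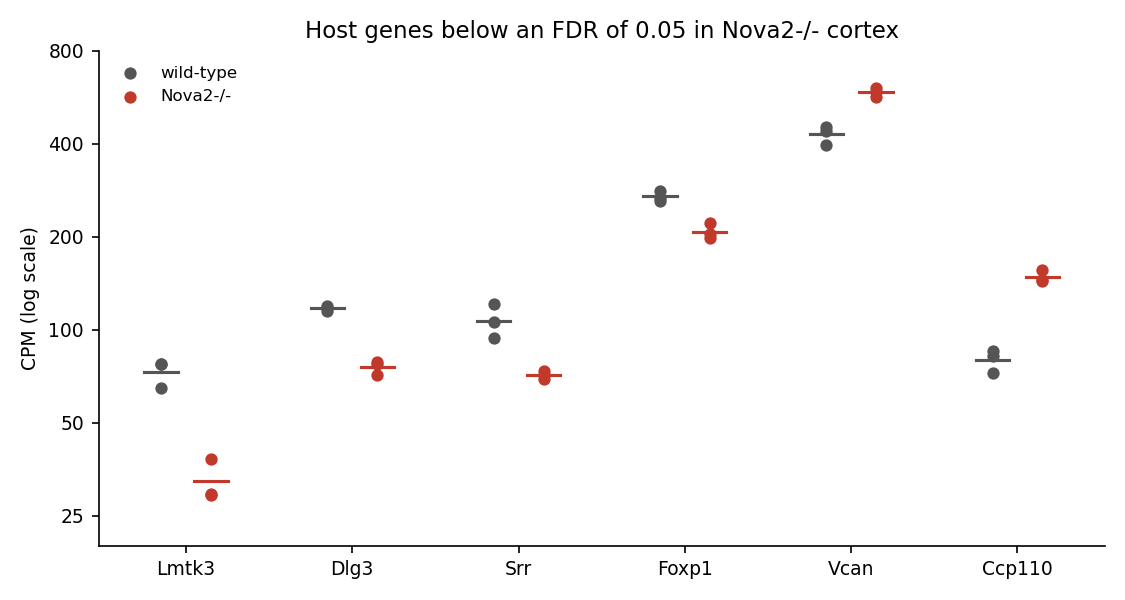
The vertical axis gives CPM (log scale) in each of 3 wild-type (grey) and 3 *Nova2-/-* (red) cortices, with a line at the mean, for the 6 host genes below an FDR of 0.05. *Lmtk3*, *Dlg3*, *Srr* and *Foxp1* lie lower and *Vcan* and *Ccp110* higher in *Nova2-/-*, without overlap.

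At an unadjusted p below 0.05 the count was 48 of 143 (33.6%), against 19.2% of all genes, with 26 higher and 22 lower. By type it was 29 of 82 genes with mutually exclusive exons, 10 of 38 with 3′ sites, 7 of 19 with 5′ sites and 7 of 16 with retained introns. No host gene of a retained intron passed the FDR, and their log2 fold changes ran from -0.28 to 0.35. Over all host genes the median log2 fold change was 0.025, and the median size 0.136 against 0.159 over all genes. Host genes and all genes were not matched for expression level, here or at the FDR, and their shares were not tested against each other.

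In *Nova1-/-* cortex none of the 143 host genes passed an FDR below 0.05, at any fold change, by edgeR or, with a log2 change of 1 or more either way, by DESeq2, where 0.0126% of 15901 genes passed by edgeR at either limit. At an unadjusted p below 0.05 there were 12 (8.39%), against 7.44% of all genes. *Lmtk3* and *Dlg3* had ΔI within 0.1 of 0 in this comparison. The median size of the log2 fold change was 0.047 for host genes and 0.08 for all genes.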

How the data were processed

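RNA-seq libraries were made from 18 samples in 6 groups of 3, of which the 12 cortex samples have abundance values here. Per the paper, reads were aligned to mm10 with OLego and splicing coordinates were converted to mm9. The labels' processing notes name edgeR and mm9. The authors deposited expected counts per gene, not normalized. They also deposited ΔI, a difference of inclusion fractions, and its FDR, an adjusted p-value, as 1 pooled value per event. The authors' own log2 fold changes and FDR values of abundance were not used.

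Expected counts were rounded and compared with edgeR 4.0.16 in R 4.3.3 (TMM, filterByExpr, quasi-likelihood test with Benjamini-Hochberg adjustment, FDR below 0.05 with a log2 change of 1 or more either way), with only the 6 samples of a comparison in each fit, and this was tested on simulated counts. The p-values set the difference between groups against the spread between these samples, estimated with information shared across genes. ΔI was counted at a |ΔI| of 0.1 and an FDR of 0.1, by row, by span and by distinct set of values. Starts in the text count from 1. Pairs of sites were resolved in GENCODE vM1 where the exons on both sides of annotated introns matched the span exactly. Pairs of exons were resolved less strictly, where annotated exons covered the ends of the span. Annotated transcripts with a single exon between these had to give exactly 2 such exons. Python 3.11.15, pandas 2.3.3, scipy 1.17.1 and pysam 0.24.0 were used, and matplotlib 3.10.9 for figures.

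The genes named are, per type, those with the largest |ΔI| in each direction (5 for mutually exclusive exons, 3 for the others), those past both limits in a *Nova1-/-* comparison, those the paper names, host genes past the FDR and members of the gene lists. Any other name was chosen after its values were seen. Event types, lists and tests were chosen with earlier results of these data known. 1 host gene whose symbol in the table is a date was named *Marchf7* from the gene number in its event name and was left out of the abundance comparison, as were 2 genes without a match. 1 retained intron is counted among the 18 but is not reported singly here. No abundance values of midbrain and hindbrain were analysed here. *Nova1-/-* cortex and midbrain and hindbrain may come from the same mice. In the *Nova2* litters the deviations of same-numbered samples from their group means correlated at 0.13, 0.053 and 0.217, so the numbers were not taken to pair the samples. Alternatives were other filters, upper-quartile scaling, DESeq2 1.42.0, any fold change, all 12 cortex samples in one fit, a replicate block, samples left out in turn, other limits on |ΔI| and FDR, other units of counting and windows of 100 nt. One of them, counting rows of 1 gene with equal ΔI values once, was added after seeing the data.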

Additional observations from a re-analysis of the deposited data

Results flagged for a closer look

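The 3′ site of *Luc7l* passed both limits in *Nova1-/-* cortex with a ΔI of -0.160 and in *Nova1-/-* midbrain and hindbrain with -0.147, while in *Nova2-/-* cortex it stood at 0.281 (FDR 0.0902). It was the only row of the 330 past both limits in a *Nova1-/-* comparison with a sign opposite to that in *Nova2-/-* cortex. The difference itself was not tested, since the table gives 1 pooled value per comparison.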

How the results depend on the processing

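The number of host genes changed in *Nova2-/-* cortex was 1 with no filter, with at least 10 counts in every sample, with upper-quartile scaling, with DESeq2, with all 12 cortex samples in one fit and with a replicate block (1 as well, for samples that share only a number). It was 6 at any fold change and ranged from 0 to 3 with 1 sample left out: 0 without *Nova2-/-* replicate 1 or 2, and 3 without WT3, where *Atg4a* and *Cxcl12* joined *Lmtk3*. In *Nova1-/-* cortex it was 0 throughout. No paired analysis was possible for the *Nova1* litters because WT4 to WT6 and *Nova1-/-* 1 to 3 share no numbers. Mutually exclusive rows past both limits in *Nova1-/-* cortex fell from 2 to 1 by distinct spans or at an FDR below 0.05. In midbrain and hindbrain the rows past both limits became 1 in place of 2 by distinct spans for 5′ sites and for retained introns, and for retained introns also with equal rows counted once. The share of events above 0 stayed within its counting interval under each alternative for all 4 types, but these intervals are wide. At a |ΔI| of at least 0.2 the share was 45.5% for 5′ sites, against 62.5% over all rows, and 48.4% against 38.8% for 3′ sites. For retained introns it was 20% against 10.5%, and for mutually exclusive exons 47.2% against 49.8%. YCAY densities moved by less than 1 SD over windows. ΔI has no depth or replicate spread here, the sign readings of the forms are inferred, and 50 of 73 splice-site rows and 107 of 121 mutually exclusive spans could not be resolved in the annotation.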

Other observations

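In 11 genes more than 1 of the 4 event types occurred. *Adam22* had a 5′ site at -0.720 and 4 mutually exclusive rows at 0.147 to 0.721. *Atp2b1* had 2 rows of 5′ sites at 0.168 and 0.188 and 4 mutually exclusive rows at -0.437 to -0.188. In both genes the spans of the 2 types overlap and share their 3′ end, so the opposite signs need not be separate changes. *Cask* had a 5′ site at 0.225 and a mutually exclusive row at -0.258 that lies elsewhere in the gene. *St7* carried 3 types, with its 3′ site at 0.516, its intron at -0.287 and a mutually exclusive row at -0.174. Long noncoding RNA genes were also among the hosts: *Firre* had mutually exclusive rows at 0.236 and 0.239 (FDR 0.0988 and 0.0990) and *Snhg14* one at -0.122 (FDR 0.0159).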
